A study of Mus musculus with 6 samples.

Results

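The genes described here are 41 genes of DNA replication and S phase, from the enzymes that make deoxyribonucleotides to the helicase, polymerases, sliding clamp and chromatin factors that copy DNA. They were chosen by name from a deposited table of 55446 genes, and each name matched 1 gene. RNA had been sequenced from crypts of the mouse ileum at day 3 of tamoxifen in 6 libraries. The Adar iΔgut group (Adarfl/fl;VilCreERt2, labelled Adar1 KO, 3 libraries) carried floxed alleles of Adar, the gene of an RNA-editing enzyme, and a tamoxifen-inducible Cre under the villin promoter, which is active in intestinal epithelium. The Adarfl/fl group (labelled WT, 3 libraries) carried the same floxed alleles with no Cre named, and tamoxifen was given to this group too. The table gives 1 pooled FPKM (fragments per kilobase of transcript per 1e6 fragments) per gene for a condition named TMX and 1 for a condition named con, so no value stands for a single library or mouse and no replicate spread is available. TMX was read as Adar iΔgut and con as Adarfl/fl by elimination, since the table names no genotype and mice of both groups had received tamoxifen. Adar itself (GRCm38 chromosome 3, 89715022 to 89753446) was at 52.0 FPKM in TMX and 19.5 FPKM in con (q = 0.0575, the authors' deposited table), which goes against that reading. Each direction is therefore stated for the condition labelled TMX.

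Replication begins in G1, when Orc, Cdc6 and Cdt1 load the MCM2-7 helicase onto origins, a step called licensing. Cyclin E with its kinase and the Dbf4-dependent kinase then activate the helicase together with Cdc45 and the GINS complex, and polymerase alpha-primase, delta and epsilon copy the strands behind it. Many of these genes are targets of E2F transcription factors, which the retinoblastoma protein restrains until S phase. In the ileum the dividing cells lie in the crypts, while enterocytes of the villus have left the cell cycle.

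All 41 genes were tested by the authors, and 3 of them were called at a q-value under 0.05. These were Rrm2, Mcm3 and Prim2, all higher in TMX. Called higher were thus 7.32% of the replication genes, near the 6.6% among all 15762 genes tested in the authors' deposited table. None was called lower, whereas 5.7% of all genes tested were. Most values lay above 0 without passing the test. The deposited log2 fold change, which is taken on FPKM plus 1, was above 0 for 36 of 41 genes, 38 when FPKM was rescaled to the sum over tested genes and 34 after centring on the median of all genes tested. Among all genes tested 53.5% were above 0 as deposited, 63.7% after rescaling and 50% after centring. The medians of log2 fold change listed in the authors' deposited table were 0.32 over the replication genes and 0.05 over all genes tested.

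The plain ratio of FPKM, TMX over con, ran from 0.642 for Tk1 to 3.11 for Rrm2, with a median of 1.32. It was at least 1.5 for 12 of 41 genes, or 29.3%, beside 27.6% of all genes tested. It was at least 2 for 5 genes, or 12.2%, beside 17.7% of all genes tested. In the other direction con exceeded TMX by 1.5 times or more for 1 of 41 genes, or 2.44%, beside 22.5% of all genes tested. The share of replication genes was thus near that of all genes at a ratio of 1.5, below it at a ratio of 2, and below it in the other direction. Fold changes varied with expression level in the whole table. The 4287 tested genes with a mean of 3 to 10 FPKM had a median log2 fold change of 0.07, beside 0.45 for the 17 replication genes in that range. The 3571 tested genes with a mean of 10 to 30 FPKM had a median of -0.02, beside 0.29 for the 20 replication genes in that range.

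**Figure D1:**
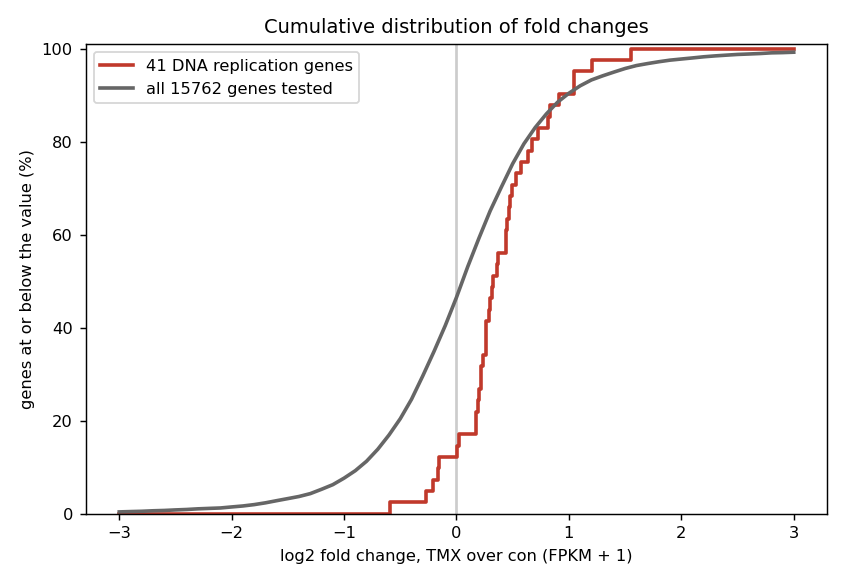
Cumulative share of genes (vertical axis, percent) at or below each log2 fold change, TMX over con, on FPKM plus 1 (horizontal axis) for the 41 replication genes (red steps) and all 15762 genes tested (grey line), shown from -3 to 3. The red steps start at -0.59, where Tk1 lies, and meet the grey line near a log2 fold change of 1.

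Markers of the cell types that crypts can hold also differed between the conditions, and in bulk samples fewer cells of a type and less RNA per cell cannot be told apart. Epithelial markers were present in both conditions, with Epcam at 372 FPKM in TMX and 869 FPKM in con, Vil1 at 224 FPKM in TMX and 467 FPKM in con, and Cdx1 at 9.52 FPKM in TMX and 12.97 FPKM in con. The 10 epithelial markers summed to 1966 FPKM in TMX and 3193 FPKM in con, and of them Krt18 was called higher and none lower by the authors. The other 9 had a log2 fold change below 0, and the median of the 10 was -0.65. Absorptive enterocyte markers summed to 4376 FPKM in TMX and 18109 FPKM in con, with 5 of 9 called lower by the authors. Alpi was at 11.6 FPKM in TMX and 80.5 FPKM in con, Sis at 918 FPKM in TMX and 3435 FPKM in con, and Fabp2 at 2213 FPKM in TMX and 9384 FPKM in con. Crypt base stem cell markers summed to 81.9 FPKM in TMX and 374.0 FPKM in con, with 2 of 8 called lower. Olfm4 was at 18.2 FPKM in TMX and 277 FPKM in con, Lgr5 at 2.64 FPKM in TMX and 4.68 FPKM in con, and Ascl2 at 0.709 FPKM in TMX and 0.992 FPKM in con. Olfm4 held most of the sum in con, and 3 of the 8 stem cell markers had a log2 fold change above 0, namely Axin2, Msi1 and Sox9, with ratios of 1.16, 1.499 and 1.56 in that order and no call.

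Paneth cell markers had 3 of 6 called lower and goblet cell markers 2 of 6, with Lyz1 at 3235 FPKM in TMX and 4656 FPKM in con and Muc2 at 252 FPKM in TMX and 262 FPKM in con. The sums were 11936 FPKM in TMX and 19309 FPKM in con for Paneth cells, and 7644 FPKM in TMX and 15444 FPKM in con for goblet cells. Myeloid markers had 7 of 10 called higher and a sum of 381 FPKM in TMX and 9.97 FPKM in con. A large part of the sum in TMX came from S100a8, at 104 FPKM, and S100a9, at 72.1 FPKM. Neither of these 2 was called (q = 0.547 for S100a8 and 0.553 for S100a9, the authors' deposited table). Lyz2 was at 135 FPKM in TMX and 4.20 FPKM in con, Csf1r at 4.47 FPKM in TMX and 0.67 FPKM in con, and Itgam at 8.85 FPKM in TMX and 1.94 FPKM in con, while Ly6g was listed at 0 in con. Of 9 tested markers of stroma, muscle and endothelium 5 were called higher, and the list summed to 166 FPKM in TMX and 14.4 FPKM in con. The 5 were Col1a1, Col1a2, Col3a1, Dcn and Pdgfra. None of the muscle and endothelial markers tested (Acta2, Myh11, Des and Pecam1) was called. Most of the sum came from Dcn, at 92.0 FPKM in TMX and 7.61 FPKM in con, and Col3a1. Col1a1 was at 2.42 FPKM in TMX and 0.212 FPKM in con, and Col3a1 at 52.0 FPKM in TMX and 2.97 FPKM in con. T and NK cell markers summed to 56.8 FPKM in TMX and 340.0 FPKM in con with 4 of 9 tested called lower, and Cd3e was at 1.62 FPKM in TMX and 4.39 FPKM in con. Gzma held most of both sums, at 40.4 FPKM in TMX and 270 FPKM in con, and all 9 tested were below 0. No marker of B and plasma cells (5 of 6 tested) or of red blood cells (3 of 5 tested) was called. All 6 B and plasma cell markers summed to 21.3 FPKM in TMX and 16.7 FPKM in con, of which Jchain made 17.95 FPKM in TMX and 10.8 FPKM in con, and 3 of the 5 tested were below 0. All 5 red blood cell markers summed to 11.0 FPKM in TMX and 7.32 FPKM in con. The replication genes summed to 543 FPKM in TMX and 411 FPKM in con, a ratio of 1.32. The part of these cell markers in the values of the replication genes was not tested.

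**Figure D2:**
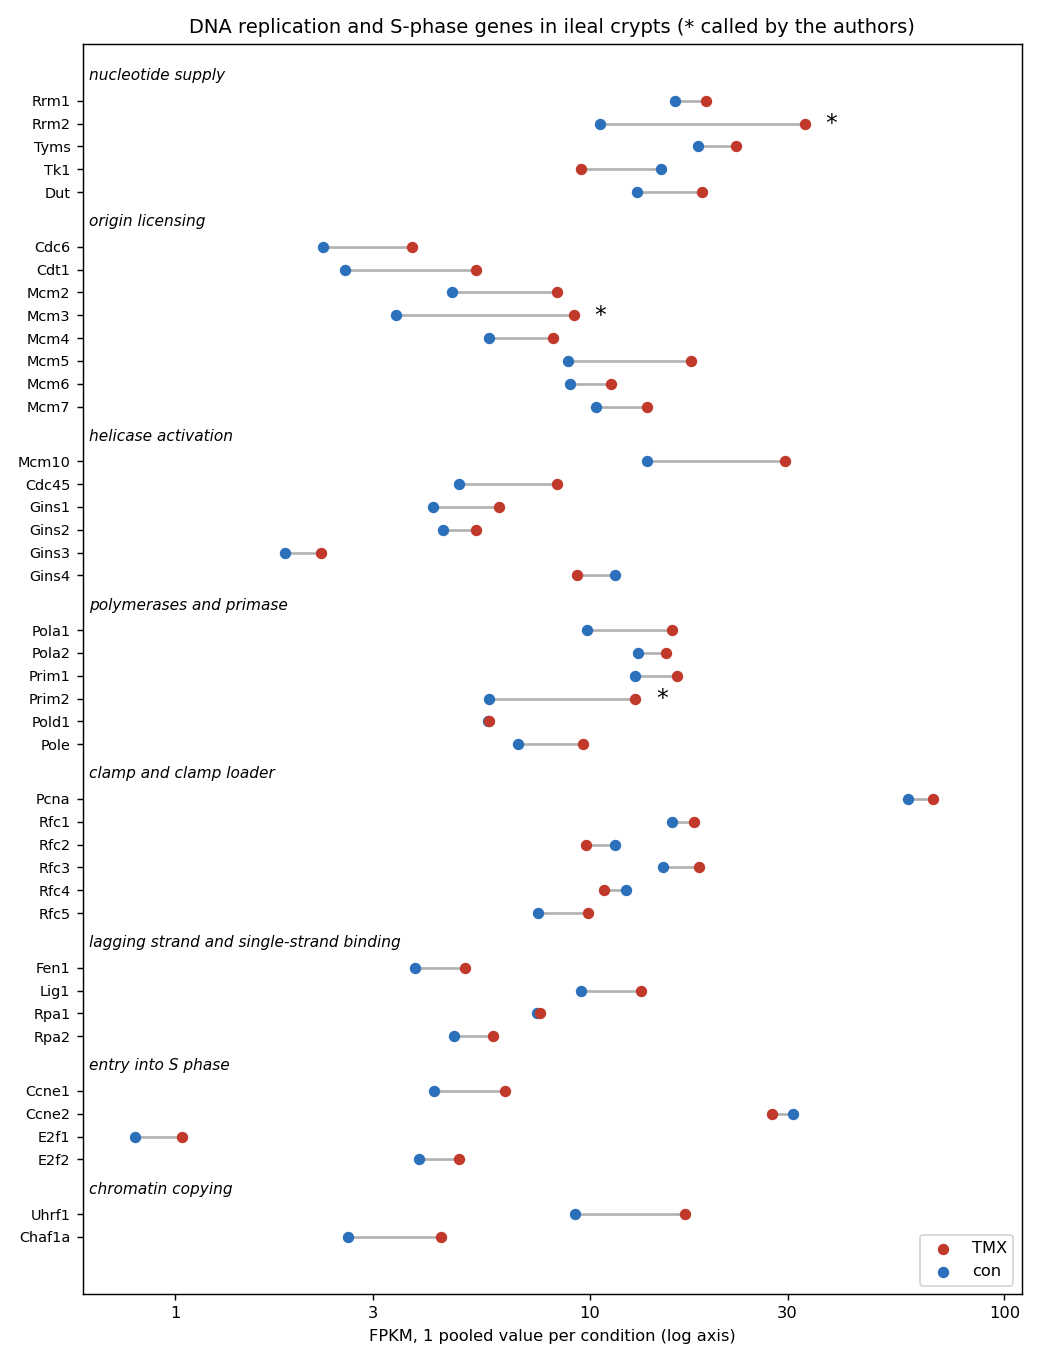
FPKM of each of the 41 replication genes in TMX (red) and con (blue) on a log axis, 1 pooled value per condition, grouped by step of replication; an asterisk marks a gene called by the authors. The red point lies right of the blue one in 36 of 41 genes, and the asterisks stand at Rrm2, Mcm3 and Prim2.

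Promoters of these genes were read for short words, since genes of replication share binding sites for E2F. RefSeq promoters on GRCm38.p6, which run from 250 bases before to 50 bases after a transcription start, were matched by symbol for 33 of 41 genes. No promoter was matched for Mcm4, Gins1, Gins2, Gins4, Prim2, Pole, Rfc2 or Ccne2. Of these, Prim2 was called higher, and Gins4, Rfc2 and Ccne2 had a log2 fold change below 0. An E2F word meant TTCCCGC or the variant that reads TTGGCGC, the variant that reads TTGCCGC or the variant that reads TTCGCGC, on either strand and with overlaps allowed. The promoters of Mcm3 and Rrm2, which rose, of Mcm6, which holds the most E2F words, and of Tk1, the gene with the lowest ratio, are printed 5′ to 3′ on the gene's strand with E2F words in capitals.
Rrm2 (chr12:24708004-24708303, plus strand): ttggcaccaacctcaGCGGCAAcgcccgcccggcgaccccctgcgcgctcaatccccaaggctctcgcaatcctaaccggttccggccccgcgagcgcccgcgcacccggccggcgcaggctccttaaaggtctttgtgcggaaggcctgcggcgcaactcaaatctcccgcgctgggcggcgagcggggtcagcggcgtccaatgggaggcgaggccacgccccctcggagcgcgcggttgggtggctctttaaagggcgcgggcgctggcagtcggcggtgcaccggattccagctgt
Mcm3 (chr1:20820263-20820562, minus strand): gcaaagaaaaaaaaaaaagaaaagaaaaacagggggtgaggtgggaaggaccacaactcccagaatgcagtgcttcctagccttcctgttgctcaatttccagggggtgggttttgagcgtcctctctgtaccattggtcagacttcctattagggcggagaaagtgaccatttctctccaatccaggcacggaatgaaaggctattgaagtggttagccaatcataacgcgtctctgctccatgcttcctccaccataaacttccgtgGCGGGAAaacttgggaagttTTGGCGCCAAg
Mcm6 (chr1:128359656-128359955, minus strand): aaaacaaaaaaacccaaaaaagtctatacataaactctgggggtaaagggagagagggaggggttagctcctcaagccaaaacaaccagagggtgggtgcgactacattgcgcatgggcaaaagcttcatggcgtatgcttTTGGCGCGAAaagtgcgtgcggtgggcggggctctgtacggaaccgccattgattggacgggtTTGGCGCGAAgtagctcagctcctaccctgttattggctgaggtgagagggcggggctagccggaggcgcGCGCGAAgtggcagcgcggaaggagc
Tk1 (chr11:117825965-117826264, minus strand): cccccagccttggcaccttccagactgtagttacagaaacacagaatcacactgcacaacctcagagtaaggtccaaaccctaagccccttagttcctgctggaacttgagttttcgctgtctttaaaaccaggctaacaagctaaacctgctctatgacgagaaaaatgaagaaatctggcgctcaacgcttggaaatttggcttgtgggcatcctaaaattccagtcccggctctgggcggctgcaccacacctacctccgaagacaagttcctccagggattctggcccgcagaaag
Mcm3 holds 3 words, all after its transcription start, and the last 2 of them overlap. Mcm6 holds 5 words, of which 4 form overlapping pairs before the start. Rrm2 holds 1 word, far upstream at position -235, and the Tk1 window holds none of these words.

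At least 1 E2F word was present in the promoters of 21 of 33 replication genes, or 63.6%. The share was 18.7% among the 10317 tested genes with a promoter in the table and 10.9% among all 27025 genes of the table. The words were not particular to the 41 genes, since 48 of 99 genes in the lists of related replication and cell cycle genes, or 48.5%, held an E2F word too, and 57.6% held CCAAT, the word of the factor NF-Y. The median GC content was 60.2% for the replication genes and 60.2% for tested genes with a promoter. CCAAT was present for 20 of 33 replication genes, or 60.6%, beside 43.0% of tested genes and 41.1% of all genes in the table, and in 3 replication genes it overlapped an E2F word. The CHR words TTTGAA and TTCGAA, known from genes of the later cell cycle, were present for 7 of 33, or 21.2%, beside 17.2% of tested genes and 21.7% of all genes in the table. Of the 42 E2F words in 39 promoters of replication genes, 27 began within 50 bases of a start. Log2 fold changes listed in the authors' deposited table had a median of 0.32 for the 21 with an E2F word and 0.32 for the 12 without. Genes with no matched promoter, among them Prim2, Gins4, Rfc2 and Ccne2, are in neither group. Among the other tested genes the median was 0.08 for the 1913 with an E2F word and 0.03 for the 8371 without, and 6.64% of those with a word and 7.65% of those without were called higher in the authors' deposited table. Called lower were 4.44% of those with a word and 7.17% of those without, a difference that was not tested. A match is a description of letters and does not show binding.

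**Figure D3:**
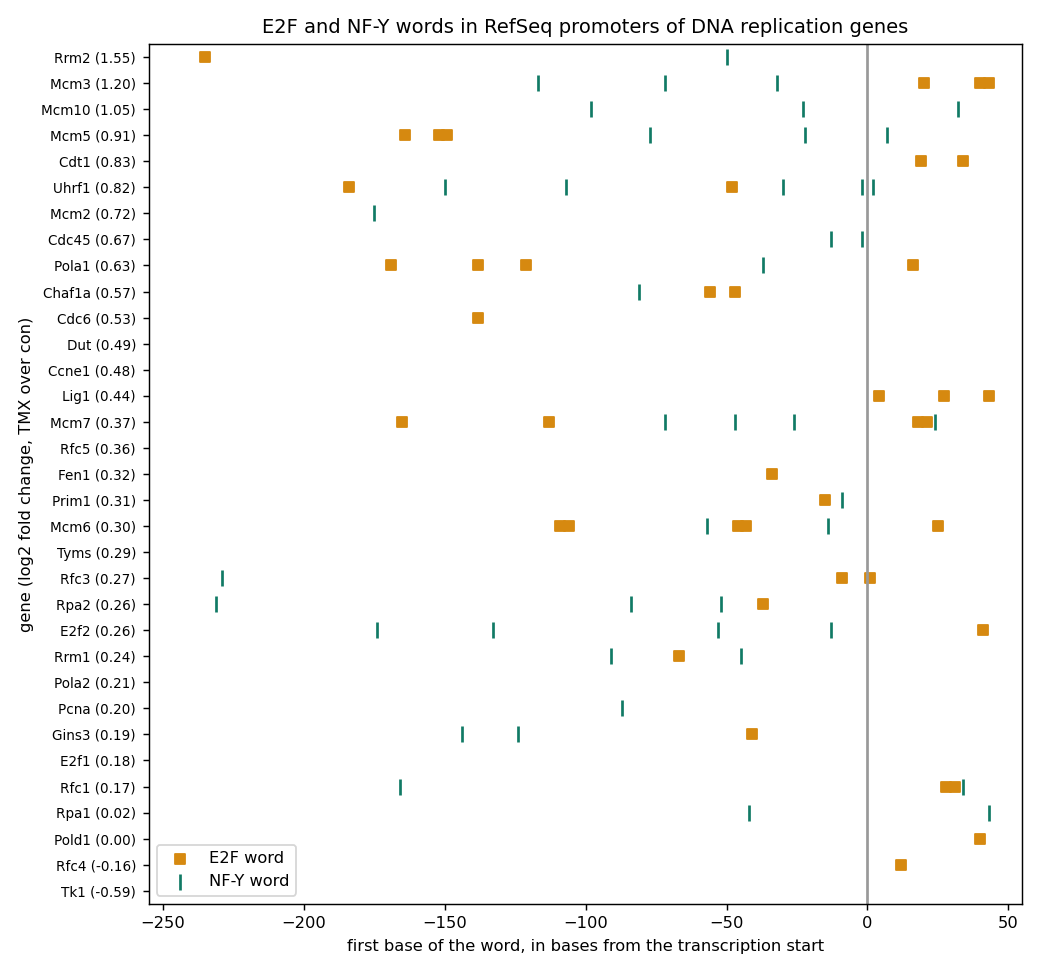
Position of E2F words (orange squares) and NF-Y words (green ticks) in RefSeq promoters of 33 replication genes, in bases from the transcription start (horizontal axis), with genes ordered by deposited log2 fold change, TMX over con (in brackets). Genes with several starts have all their words on a shared row; words are present from Rrm2 at the top to Rfc4 near the bottom.

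Deoxyribonucleotide supply held the largest rise. Rrm2, the regulated small subunit of ribonucleotide reductase (ENSMUSG00000020649.11, GRCm38 chromosome 12, 24708241 to 24714146, plus strand), was at 33.0 FPKM in TMX and 10.6 FPKM in con. The authors' deposited table gives it a log2 fold change of 1.55, p = 5e-05, the lowest p that the table holds, and q = 0.00112. The large subunit Rrm1 was at 19.1 FPKM in TMX and 16.1 FPKM in con (q = 0.83, the authors' deposited table). The subunits therefore changed order, with Rrm2 over Rrm1 at 1.73 in TMX and 0.661 in con. Among the 41 genes Rrm2 ranked 2 by FPKM in TMX and 15 in con. Tyms, which makes thymidylate, was at 22.5 FPKM in TMX and 18.2 FPKM in con, and Dut, which removes dUTP, at 18.6 FPKM in TMX and 12.98 FPKM in con. Neither passed the test, with q-values of 0.838 for Tyms and 0.436 for Dut in the authors' deposited table. Tk1, the thymidine salvage kinase of dividing cells, went the other way at 9.54 FPKM in TMX and 14.9 FPKM in con (q = 0.658, the authors' deposited table).

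All 8 genes of origin licensing had a log2 fold change above 0, the lowest at 0.30. Rescaling raised all 8 genes further, and centring lowered them by too little to reverse a sign. Their median in the authors' deposited table was 0.63, 1 of them was called, and 3 had an unadjusted p-value under 0.05, a mark passed upward by 12.1% of all genes tested. Mcm3 (ENSMUSG00000041859.10, GRCm38 chromosome 1, 20802968 to 20820312, minus strand), a subunit of the helicase ring, was at 9.15 FPKM in TMX and 3.41 FPKM in con. Its ratio was 2.68 and its log2 fold change 1.20 (p = 0.0001 and q = 0.002, the authors' deposited table). Mcm5, also of the ring, was at 17.6 FPKM in TMX and 8.88 FPKM in con, and Mcm2 at 8.35 FPKM in TMX and 4.66 FPKM in con. The q-values were 0.124 for Mcm5 and 0.201 for Mcm2 in the authors' deposited table. The other ring subunits had ratios of 1.43 for Mcm4, 1.32 for Mcm7 and 1.26 for Mcm6, and the authors' deposited table lists q = 0.306 for Mcm4, 0.78 for Mcm7 and 0.646 for Mcm6.

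The ring is built from 1 copy of each MCM2-7 subunit. Mean FPKM of the 6 subunits was 11.4 in TMX and 6.99 in con. The transcripts of the ring lay closer together in TMX. Per length, the highest subunit exceeded the lowest 2.15 times in TMX (Mcm5 over Mcm4) and 3.03 times in con (Mcm7 over Mcm3). It was not particular to the ring. The GINS subunits also lay closer together, with a highest over lowest ratio of 4.16 in TMX and 6.24 in con. For the Rfc genes of the clamp loader this ratio was 1.87 in TMX and 2.11 in con. None of these differences in spread was tested. Cdc6, the loader ATPase, was at 3.73 FPKM in TMX and 2.27 FPKM in con (q = 0.319, the authors' deposited table). Cdt1, its partner, was at 5.33 FPKM in TMX and 2.56 FPKM in con, a ratio of 2.08 (p = 0.302, the authors' deposited table). Geminin, or Gmnn, which binds and blocks Cdt1, was at 27.3 FPKM in TMX and 32.4 FPKM in con, so that Cdt1 over Gmnn was 0.195 in TMX and 0.0791 in con. Neither gene was called, and Cdt1 is among the genes with a wider locus, described below, whose values are uncertain.

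**Figure D4:**
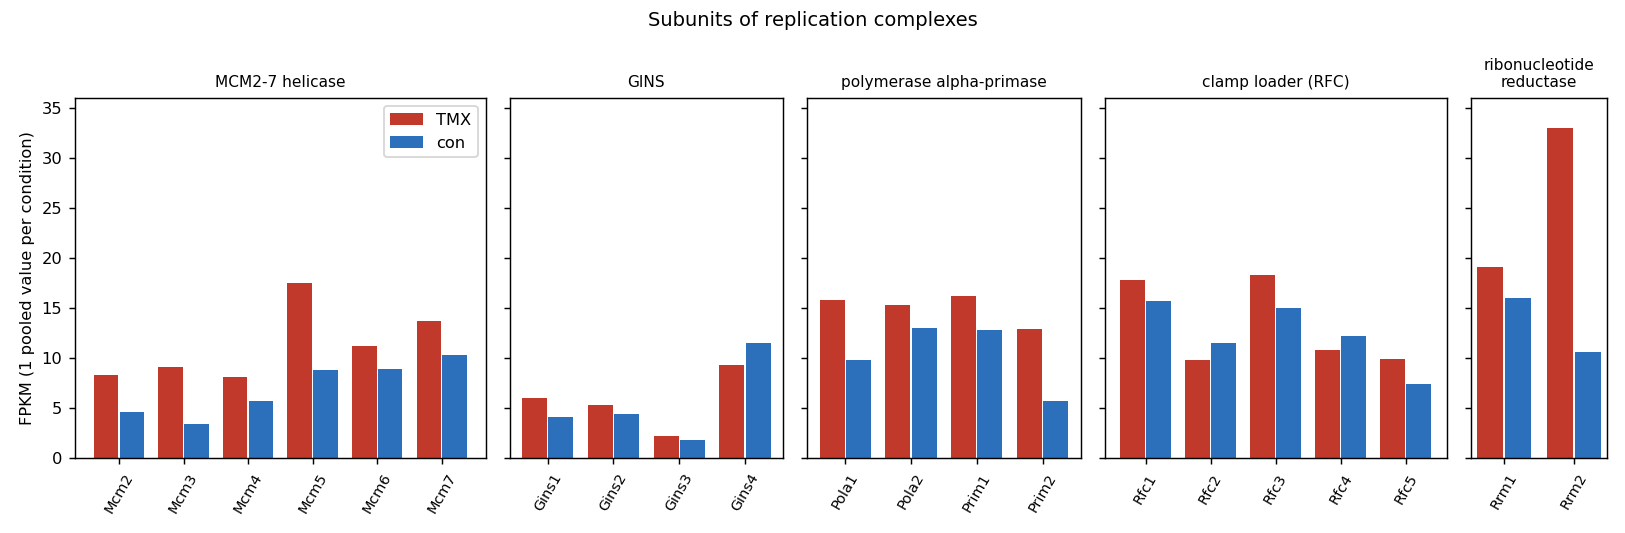
FPKM (vertical axis, from 0) of subunits of 5 replication complexes in TMX (red, left bar) and con (blue, right bar), 1 pooled value each, with no error bar because the table holds no replicate values. Rrm2 stands at 33.0 FPKM in TMX against 10.6 FPKM in con, and each MCM2-7 subunit has its taller bar in TMX.

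Of the genes that activate the helicase none was called. Mcm10, which joins the helicase as it fires, was at 29.5 FPKM in TMX and 13.7 FPKM in con, a ratio of 2.15 (p = 0.0427 and q = 0.197, the authors' deposited table). Cdc45 was at 8.32 FPKM in TMX and 4.84 FPKM in con (q = 0.476, the authors' deposited table). The GINS subunits were uneven. Gins1 was at 6.04 FPKM in TMX and 4.19 FPKM in con, Gins2 at 5.33 FPKM in TMX and 4.43 FPKM in con, and Gins3 at 2.24 FPKM in TMX and 1.84 FPKM in con. Gins4 was at 9.34 FPKM in TMX and 11.5 FPKM in con. The q-values of the 4 GINS genes ran from 0.536 to 0.948 in the authors' deposited table.

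Primase contributed the third called gene. Prim2 (ENSMUSG00000026134.11, GRCm38 chromosome 1, 33453810 to 33669795, minus strand), the large primase subunit, was at 12.9 FPKM in TMX and 5.72 FPKM in con. Its log2 fold change was 1.05 (p = 0.00125 and q = 0.015, the authors' deposited table). The catalytic primase subunit Prim1 was at 16.2 FPKM in TMX and 12.8 FPKM in con, Pola1, the catalytic subunit of polymerase alpha, at 15.8 FPKM in TMX and 9.82 FPKM in con, and its partner Pola2 at 15.3 FPKM in TMX and 13.1 FPKM in con. The authors' deposited table lists q = 0.653 for Prim1, 0.269 for Pola1 and 0.834 for Pola2. The highest of these 4 subunits exceeded the lowest 1.26 times in TMX and 2.28 times in con, where Prim2 was the lowest. Pole, the leading-strand polymerase, was at 9.65 FPKM in TMX and 6.70 FPKM in con, and Pold1, of the lagging-strand polymerase, at 5.70 FPKM in TMX and 5.68 FPKM in con. Neither was called, and the sign of Pold1 changed after centring.

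The sliding clamp was the most abundant of the 41 transcripts in both conditions. Pcna was at 67.3 FPKM in TMX and 58.4 FPKM in con (q = 0.857, the authors' deposited table). Genes of its loader had ratios from 0.851 to 1.32. Rfc1 was at 17.8 FPKM in TMX and 15.8 FPKM in con, Rfc3 at 18.3 FPKM in TMX and 15.1 FPKM in con, and Rfc5 at 9.89 FPKM in TMX and 7.48 FPKM in con. Rfc2 was at 9.81 FPKM in TMX and 11.5 FPKM in con, and Rfc4 at 10.8 FPKM in TMX and 12.2 FPKM in con, with the sign of Rfc4 changing after rescaling. None of the 6 clamp and loader genes was called or had an unadjusted p-value under 0.05 in the authors' deposited table.

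On the lagging strand, the flap nuclease Fen1 was at 5.01 FPKM in TMX and 3.80 FPKM in con, and the ligase Lig1 at 13.3 FPKM in TMX and 9.52 FPKM in con. The single-strand binding genes among the 41 were Rpa1, at 7.59 FPKM in TMX and 7.48 FPKM in con, and Rpa2, at 5.84 FPKM in TMX and 4.70 FPKM in con. None of these 4 was called, their q-values ran from 0.65 to 0.989 in the authors' deposited table, and the sign of Rpa1 changed after centring. Rpa3, which is not among the 41, was lower at 34.1 FPKM in TMX and 64.2 FPKM in con (q = 0.0602, the authors' deposited table). None of the 4 genes that drive entry into S phase was called. Ccne1 was at 6.23 FPKM in TMX and 4.20 FPKM in con, and Ccne2 at 27.6 FPKM in TMX and 30.9 FPKM in con, with the sign of Ccne2 changing after rescaling. Ccne2 over Ccne1 was 4.42 in TMX and 7.36 in con. The activator E2f1 was the least abundant of the 41 at 1.04 FPKM in TMX and 0.802 FPKM in con, and E2f2 was at 4.84 FPKM in TMX and 3.88 FPKM in con. The 4 q-values ran from 0.614 to 0.938 in the authors' deposited table. Uhrf1, which guides DNA methylation to the new strand, was at 17.0 FPKM in TMX and 9.23 FPKM in con (p = 0.016 and q = 0.101, the authors' deposited table). Chaf1a, the large subunit of the histone chaperone CAF-1, was at 4.37 FPKM in TMX and 2.61 FPKM in con (q = 0.441, the authors' deposited table). Chaf1a and Uhrf1 both lie on chromosome 17, with 231 kb between the end of Chaf1a and the start of Uhrf1.

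The loci that the table gives to these genes differ in width. For 29 genes the locus equalled the annotated gene, and for 12 it was wider than the gene. Of the 5 genes with a log2 fold change below 0, 4 were among those 12 (Tk1, Rfc2, Rfc4 and Ccne2), and Gins4 had a locus of its own. Of the 29 genes with a locus equal to the gene, 28 were above 0 and the median was 0.31. Of the 12 others 8 were above 0 and their median was 0.34. All 3 called genes had a locus equal to the gene. Cdt1 and Gins2 shared a locus of 4.44 Mb on chromosome 8 that the table gives for 210 genes, and the test statistics in the authors' deposited table were 0.0576 for Cdt1 and 0.00916 for Gins2. By comparison the statistic of Mcm2, whose ratio of 1.79 is below the 2.08 of Cdt1, was 0.808 in the authors' deposited table. Whether the authors' counting used strand is not stated. All 12 genes with a wider locus overlap another protein-coding gene, so their values are uncertain. Prim2 has a locus equal to the gene, but that locus is listed for 4 genes. The genes that Prim2 overlaps are not annotated as coding. The partner was above the replication gene in both conditions for Rfc4 (Eif4a2, 337 FPKM in TMX and 309.7 FPKM in con), Fen1 (Tmem258, 34.1 FPKM in TMX and 65.4 FPKM in con) and Rfc5 (Wsb2, 38.9 FPKM in TMX and 22.4 FPKM in con). The same held for Cdc45 (Ufd1, 25.4 FPKM in TMX and 21.6 FPKM in con), Chaf1a (Ubxn6, 10.7 FPKM in TMX and 18.5 FPKM in con) and Gins2 (Gse1, 5.73 FPKM in TMX and 5.29 FPKM in con). For Mcm7 it held in con alone (Cops6, 12.52 FPKM in TMX and 15.9 FPKM in con). Ints8, at 19.95 FPKM in TMX and 18.7 FPKM in con, lay below its partner Ccne2, and Afmid, at 1.56 FPKM in TMX and 2.78 FPKM in con, far below Tk1. The part of the wider loci in these values was not tested.

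Other genes of replication and the G1/S switch were examined as 8 lists with 119 genes, of which 118 were tested. Of these, 3 or 2.54% were higher and 2 or 1.69% lower by the calls in the authors' deposited table, below the 6.6% and 5.7% among all genes tested. The median log2 fold change was 0.27, and 83 or 70.3% were above 0, beside 53.5% of all genes tested. Ctps, which makes CTP, was at 10.1 FPKM in TMX and 3.33 FPKM in con (q = 0.002, the authors' deposited table), and was the only gene called among 15 further genes of nucleotide supply. Rad18, a ubiquitin ligase that marks PCNA at stalled forks, was at 11.2 FPKM in TMX and 4.94 FPKM in con, and Atad5, which unloads PCNA, at 5.33 FPKM in TMX and 2.96 FPKM in con. The authors' deposited table lists q = 0.0126 for Rad18 and 0.0497 for Atad5. Rad18 was 1 of 17 tested genes of the replication checkpoint and repair, where 15 were above 0 and the median log2 fold change, from the authors' deposited table, was 0.54. Atad5 was 1 of 20 tested replisome genes, with 15 above 0 and a median of 0.33.

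The calls in the lower direction were both inhibitors of the G1/S switch. Cdkn2b, which encodes the CDK4/6 inhibitor p15, fell to 12.3 FPKM in TMX, against 39.3 FPKM in con (q = 0.00112, the authors' deposited table). Rb1, the retinoblastoma gene, fell to 19.5 FPKM in TMX, against 47.4 FPKM in con (q = 0.0462, the authors' deposited table). The 14 tested inhibitors had a median log2 fold change of -0.32 with 6 above 0, none of them called. The highest ratios among these 6 were 3.94 for Cdkn1c, or p57 (p = 0.0196 and q = 0.116, the authors' deposited table), 2.25 for the repressor E2f6 (p = 0.00765 and q = 0.0587, the authors' deposited table) and 1.94 for the repressor E2f7. Cdkn1a, or p21, was at 15.4 FPKM in TMX and 12.8 FPKM in con. Of 15 genes of origin recognition and firing none was called, 11 were above 0 and the median was 0.45, with Orc6 at 23.3 FPKM in TMX and 11.4 FPKM in con. Lists of fork chromatin (11 genes, median 0.16) and of G1/S activators (11 genes, median 0.14) held no call. Nearest to a call among the activators was Tfdp2, lower at 9.21 FPKM in TMX and 24.5 FPKM in con (q = 0.0509, the authors' deposited table). Of the 11 activators 7 were above 0. Mitosis markers held none either, with 10 of 15 above 0 and a median of 0.17. Mki67 was at 49.5 FPKM in TMX and 34.6 FPKM in con, and Cdk1 at 43.4 FPKM in TMX and 42.7 FPKM in con.

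**Figure D5:**
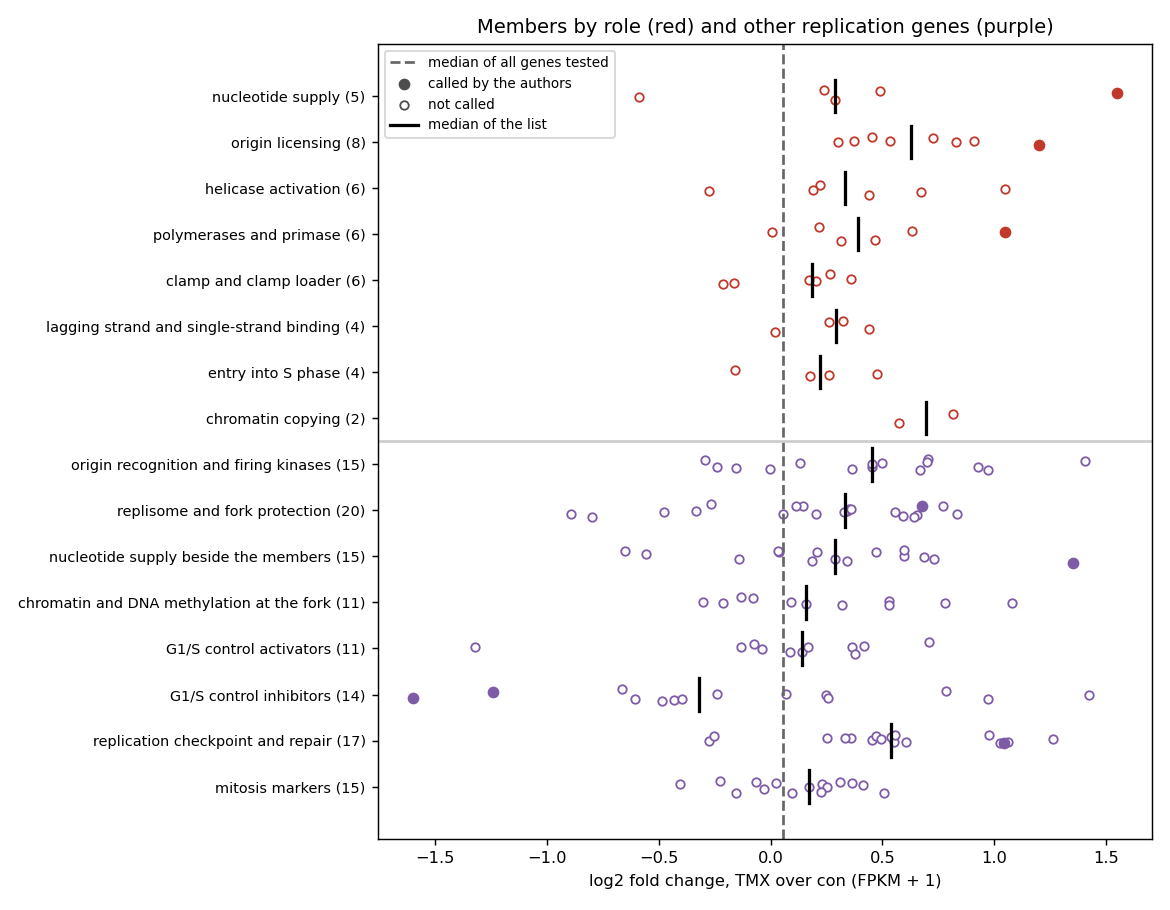
Deposited log2 fold change, TMX over con on FPKM plus 1 (horizontal axis), of each gene in the 8 roles of the 41 replication genes (red) and in 8 lists of other replication and cell cycle genes (purple), with the number tested in brackets. Filled points were called by the authors, black bars are list medians and the dashed line is the median of all genes tested, 0.05; the filled points lower in TMX are Cdkn2b and Rb1.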

How the data were processed

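STAR, Cufflinks and GRCm38 are named without versions or parameters, per the submitters' processing notes. Per the file headers, the deposited FPKM are 1 pooled value per condition, and the p-values, the q-values and a test statistic (a score) come from the authors' own test. Recomputed from the FPKM, the deposited log2 fold change is log2((TMX + 1)/(con + 1)), and a deposited signed score is the −log10 of the p-value carrying its sign. The deposited q-value equalled a Benjamini-Hochberg adjustment over the 15762 genes with a test. No new test was run. The authors' calls at a q-value under 0.05 were counted per list, as planned for a file without replicate values. Whether all 6 libraries entered that test, and the depth of each, are unknown here. Biological replicates are numbered in the labels. Genes with a status for excess data (60) were left out, and none was a replication gene.

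The 41 genes, the 8 lists of related genes and the 10 lists of cell markers were chosen with earlier results of these data known. The rule for names took all 41 genes, Adar, every called gene of the related lists and the first 3 markers of a cell type, of which 1 or more are printed for most types. Gmnn, Orc6, Cdkn1a, Cdkn1c, E2f6, E2f7, Axin2, Msi1, Sox9, Jchain, Mki67, Cdk1, Ly6g, Krt18, the overlapping genes and the genes named in the closing section were added after their values were seen. So were Gzma, S100a8, S100a9, Dcn, Pdgfra, Acta2, Myh11, Des and Pecam1. All 55446 identifiers were found in GENCODE vM21, which gave gene coordinates, 1-based. Promoters came from RefSeq. Tables were read with pandas 2.3.3 under Python 3.11.15, arrays handled with numpy 2.4.6 and plots drawn with matplotlib 3.10.9; the adjustment and the word search were tested on simulated data.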

Additional observations from a re-analysis of the deposited data

How the results depend on the processing

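The count of called replication genes was 3, with 3 at a q-value under 0.1, 2 at a q-value under 0.01, 3 when adjusted over genes with a mean of at least 1 FPKM, and 2 when adjusted over every gene listed, where Prim2 was lost. At an unadjusted p-value under 0.05 it was 7, all higher, beside 12.1% of all genes tested higher and 10.7% lower. The median log2 fold change was 0.55 after rescaling to the sum over tested genes, which moved the median of all genes by 0.20, and otherwise between 0.27 and 0.40 under the other pseudocounts, centring and the filter on low values. None of the 3 called replication genes changed direction. At log2 fold changes of 1.05 to 1.55 they could not, since rescaling raised them and centring lowered them by far less than that. Of the related lists, calls at a q-value under 0.1 numbered 1 for origin recognition, 2 for the replisome (Atad5, higher, and Rpa3, lower), 1 for G1/S activators (Tfdp2, lower), 3 for G1/S inhibitors (E2f6, higher, beside the 2 lower) and 2 for checkpoint and repair. At an unadjusted p-value under 0.05 they numbered 2 for origin recognition, 3 for the replisome, 1 for fork chromatin, 1 for G1/S activators, 4 for G1/S inhibitors (2 higher and 2 lower) and 4 for checkpoint and repair. The causes were not tested, beyond the looser or stricter threshold itself. No paired analysis was possible because the table holds 1 pooled value per condition, and leaving out replicates was not run for the same reason.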
